A study of Sus scrofa with 12 samples.

Results

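The imprinted DLK1-DIO3 cluster is a long run of miRNA genes, and its members were followed here through prenatal muscle development of the pig. Members were taken by name, as every known pig miRNA whose number is among those assigned to this cluster in mammals, with any letter or arm. The rule found 20 of the 800 miRNA names in the deposited table, 385 of which are known miRNAs and the rest candidates. Of these 20 names, 17 had at least 10 reads in at least 2 libraries and were tested together with the 360 other miRNAs that passed the same filter. The names miR-376b, miR-432-3p and miR-494 had 0 or 1 read in every library and are not described further. Sequences are shared closely among miR-376 members, so reads may be split between their names.

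Small RNA of fetal *longissimus* muscle was sequenced from Large White pigs whose sows received a normal diet (NE) or a calorie-restricted diet (RE) from mating onwards. Collection was at day 35, day 55 or day 90 of gestation (dg), with 1 miRNA library and 1 mRNA library for each diet and stage, named NE35, RE35, NE55, RE55, NE90 and RE90. A fetus of near-average weight was chosen from each sow, all sows were mated to the same boar, and it is not stated whether the RNA of several fetuses was pooled in a library. No other treatment is named, and NE is the control of RE at each stage. Total miRNA reads ran from 1522142 in NE35 to 3811231 in RE90. Levels are given as the deposited TPM, in which reads are scaled to the total reads on miRNAs of the library. In whole muscle, a change in the number of cells of a type and a change of RNA per cell cannot be told apart.

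In mammals this locus is imprinted: the protein-coding genes DLK1, RTL1 and DIO3 are expressed from the paternal chromosome, and the non-coding RNAs, including MEG3 and the miRNA hairpins, from the maternal chromosome. Long maternal transcripts are cut into many miRNAs, which is why the hairpins are often treated as a unit. The locus is known in muscle through the callipyge sheep, in which a change between DLK1 and MEG3 goes with overgrown hindquarter muscles. In mouse and human the hairpins fall into a group near RTL1, with miR-493, miR-127, miR-432 and miR-136, then miR-370, then a larger downstream group. In mouse, miR-127 and miR-136 lie antisense to Rtl1 and are fully complementary to its transcript.

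The pig annotation of RefSeq (assembly Sscrofa11.1, used for names and order only) lists 7 hairpins of these members. MIR493 stands between MEG3 and RTL1, and MIR127, MIR432 and MIR136 lie within the span of RTL1. MIR376C, MIR376A and MIR381 are listed next to each other on sequence not placed on a chromosome. The order of the annotated hairpins near RTL1 is thus that of the mouse and human cluster. The study designed PCR assays for 2 members, and the sequence that each primer pair spells out is shown. Capitals mark bases 2 to 8, the seed, through which a miRNA pairs with its targets.
miR-376a-5p: gTAGATTCtccttctatgagtac
miR-381: aGCGAGGTtgccctttgtatatt
The seeds of these 2 sequences differ, so they form no shared seed group. Which arm was counted under the name miR-381 is not given in the sources used here, so its printed sequence and seed may not be those of the counted arm.

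The cluster as a whole took a larger share of the reads at 55 than at 35 dg. Its 20 names took 1.91% of all miRNA reads in NE35 and 3.34% in RE35. At 55 dg they took 7.12% in NE55 and 9.13% in RE55, and at 90 dg 5.43% in NE90 and 6.05% in RE90. Each of these shares has an exact 95% counting interval within 0.04 percentage points of it, which covers counting error only. The 35 dg libraries were the lowest, the 55 dg libraries the highest, and at each stage the RE library was above the NE library.

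The most abundant members were miR-369 and miR-127. miR-369, of the downstream group, was at 6391 TPM at 35 dg, 29653 at 55 dg and 23417 at 90 dg in the NE libraries, and 11069, 34948 and 26659 in the RE libraries. It ranked 34 of the 800 names in NE35 and 4 in RE55. miR-127, whose hairpin lies within the span of RTL1, was at 3788 TPM in NE and 6935 in RE at 35 dg, 17651 and 23168 at 55 dg, and 13098 and 15641 at 90 dg. For both, each 55 and 90 dg library lay above both 35 dg libraries.

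The other members near RTL1 also had their lowest levels at 35 dg. miR-136, which also lies within that span, was at 1211 TPM (NE) and 1904 (RE) at 35 dg, 5449 and 7187 at 55 dg, then 4490 and 5531 at 90 dg. The 35 dg libraries did not overlap with the later ones. The 3p arm of miR-493 was at 242 TPM at 35 dg, 772 at 55 dg and 755 at 90 dg in the NE libraries, and 341, 1129 and 822 in the RE libraries. Its 5p arm was at 185 TPM in NE and 283 in RE at 35 dg, 1157 and 953 at 55 dg, and 1101 and 1161 at 90 dg. The 5p arm was thus the only one of these members whose RE55 level lay below NE55. For miR-432-5p the levels were 57.8 TPM (NE) and 65.4 (RE) at 35 dg, 220 and 234 at 55 dg, then 160 and 177 at 90 dg, and the 35 dg libraries again stood below the rest.

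For miR-370 and the abundant downstream members miR-758 and miR-323, at least 1 library of 90 dg lay within or below the 35 dg range. The ratio of 90 dg to 55 dg TPM in NE was 0.734 for miR-370, 0.785 for miR-323 and 0.639 for miR-758. In RE it was 0.46, 0.326 and 0.417. The median ratios of the members were 0.785 in NE and 0.682 in RE. miR-370 was at 1924 TPM at 35 dg, 3546 at 55 dg and 2604 at 90 dg in the NE libraries, and 3186, 7133 and 3280 in the RE libraries, so that NE90 fell within the range of the 35 dg libraries. miR-758 was at 3918 TPM in NE and 7316 in RE at 35 dg, 9891 and 12062 at 55 dg, and 6319 and 5031 at 90 dg, with both 90 dg libraries between the 35 dg libraries. miR-323 was at 814 TPM (NE) and 1382 (RE) at 35 dg, 1199 and 2212 at 55 dg, then 941 and 720.0 at 90 dg, and its RE90 level was the lowest of the 6 libraries. For miR-323 alone among the 17 members, the 35 and 55 dg libraries overlapped.

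The hairpins of the miR-376 names are known for RNA editing in mouse and human. miR-376a-5p, whose sequence is printed above, was at 272 TPM at 35 dg, 477 at 55 dg and 389 at 90 dg in the NE libraries, and 380.6, 856 and 422 in the RE libraries. miR-376a-3p was at 143 TPM in NE and 226 in RE at 35 dg, 432.7 and 593 at 55 dg, and 430 and 384 at 90 dg. RE55 was the highest library for both arms. miR-376c was at 48.6 TPM (NE) and 74.6 (RE) at 35 dg, 138 and 160 at 55 dg, then 122.1 and 119.9 at 90 dg, and its 35 dg libraries lay below all others.

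In each of the remaining downstream members the 2 libraries of 35 dg were the lowest. miR-411 was at 48.6 TPM at 35 dg, 227 at 55 dg and 151 at 90 dg in the NE libraries, and 89.7, 269 and 183 in the RE libraries. miR-299 was at 28.9 TPM in NE and 45.2 in RE at 35 dg, 141.3 and 134.2 at 55 dg, and 136.55 and 168 at 90 dg, which makes it and miR-493-5p the members with their highest level at 90 dg. miR-381 was at 34.8 TPM (NE) and 58.9 (RE) at 35 dg, 178 and 159 at 55 dg, then 124.1 and 128.8 at 90 dg. Its NE55 level was thus above RE55, unlike most members. miR-382 was at 23.7 TPM at 35 dg, 90.4 at 55 dg and 68.3 at 90 dg in the NE libraries, and 45.2, 134.2 and 84.8 in the RE libraries. miR-487b, the rarest member tested, ran from 7.23 TPM in NE35 to 17.8 in RE55 on 11 to 49 reads, so its ratios are imprecise. The plot of TPM by library shows these courses side by side.

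**Figure D1:**
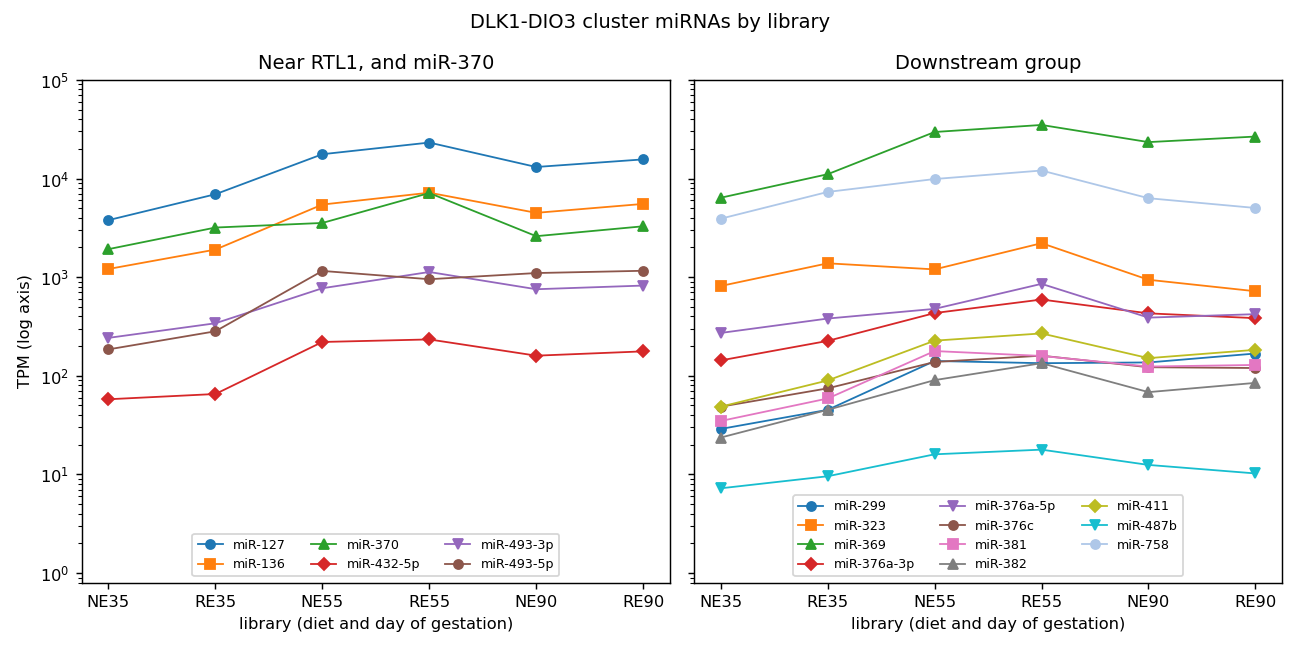
TPM of the 17 tested members (log axis) in each of the 6 miRNA libraries, with members near RTL1 and miR-370 on the left and the downstream group on the right. Each point is 1 library and lines join the points of a miRNA. All members but miR-323 are higher in both 55 dg libraries than in both 35 dg libraries, while miR-323, miR-370 and miR-758 have at least 1 library of 90 dg within or below their 35 dg range.

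To test stage, both diets were used as replicates of a stage with diet as a covariate, which leaves 2 residual degrees of freedom. Between 35 and 55 dg, 14 of the 17 members were higher and 0 lower (quasi-likelihood test of edgeR, with p adjusted after Benjamini-Hochberg over all miRNAs tested and a threshold of 0.05). Over all miRNAs tested, 16.2% were higher. The median log2 fold change was 1.96 for the members and -0.15 over all miRNAs tested. DESeq2 called 15 of the 17. In TPM, 16 of 17 members had both 55 dg libraries above both 35 dg libraries, against 26% of all miRNAs tested. How far the median of all miRNAs lies from 0 depends on the scaling, at -0.02 with RLE size factors and -0.38 with total reads only, but the members' median stood 2.11 to 2.12 above it under all 3 scalings.

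All 5 tested members near RTL1 passed at 55 dg. miR-136 rose by 2.27 ± 0.18 (SE) on the log2 scale (adjusted p = 0.0179 from edgeR), and miR-127 by 2.20 ± 0.22 (adjusted p = 0.0179 from edgeR). miR-493-5p had the highest value of all members, 2.42 ± 0.30 (adjusted p = 0.0203 from edgeR). miR-370 rose by 1.25 ± 0.21 (adjusted p = 0.0269 from edgeR). Of the 11 tested downstream members 8 rose, among them miR-369 by 2.15 ± 0.23 and miR-411 by 2.12 ± 0.31. The rises of both miR-376a arms were 1.71 ± 0.28 for 3p and 1.22 ± 0.26 for 5p. The other downstream members gave 0.85 ± 0.35 for miR-323 (adjusted p = 0.143 from edgeR), 1.22 ± 0.32 for miR-758 (adjusted p = 0.0506 from edgeR) and 1.22 ± 0.33 for miR-487b (adjusted p = 0.0557 from edgeR), and did not pass.

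The calls rest on few libraries. With a library left out, 1 residual degree of freedom remains, and the number of members called at 55 against 35 dg was 0 without NE35, 0 without RE35, 0 without RE55 and 3 without NE55. In the same fits the number of all miRNAs called went from 104 to between 0 and 12. Without NE90 the members' median log2 fold change was 1.97, against -0.16 over all miRNAs tested. Without RE90 it was 1.97, against -0.15. More members, and also more miRNAs in all, passed in both fits than with all libraries. All 17 log2 fold changes of the members were above 0 whichever library was left out, with medians from 1.64 to 2.28.

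Between 35 and 90 dg, 12 of 17 members were higher and 0 lower by the same edgeR test, against 19.1% of all miRNAs higher. The median of the members was 1.81. In TPM, 14 of 17 had both 90 dg libraries above both 35 dg libraries, against 22.8% of all miRNAs tested. miR-493-5p rose by 2.78 ± 0.30 and miR-299 by 2.55 ± 0.33 on the log2 scale. The members that did not pass were miR-323 at 0.17 ± 0.36, miR-758 at 0.57 ± 0.31, miR-370 at 0.74 ± 0.21, miR-376a-5p at 0.84 ± 0.25 and miR-487b at 0.91 ± 0.33. DESeq2 called 14, adding miR-370 and miR-376a-5p. With a library left out, the members' median ranged from 1.40 to 2.10, against -0.25 to -0.08 over all miRNAs tested. Fewer miRNAs in all passed in each of these fits than with all libraries. Fewer members passed as well, except in the fit without RE90.

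Between 55 and 90 dg no member passed the edgeR test in either direction, and neither did any other miRNA (0% of the miRNAs tested were higher and 0% lower). At an unadjusted p under 0.05 the counts were 0 of 17 members and 21 of all miRNAs, and DESeq2 called 0 members and 3 miRNAs in all. The members' median log2 fold change was -0.16, against 0.05 over all miRNAs tested. The lowest values of members were -0.68 ± 0.36 for miR-323, -0.66 ± 0.31 for miR-758 and -0.51 ± 0.21 for miR-370. At the other end stood miR-299 with 0.39 ± 0.31 and miR-493-5p with 0.36 ± 0.28.

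**Figure D2:**
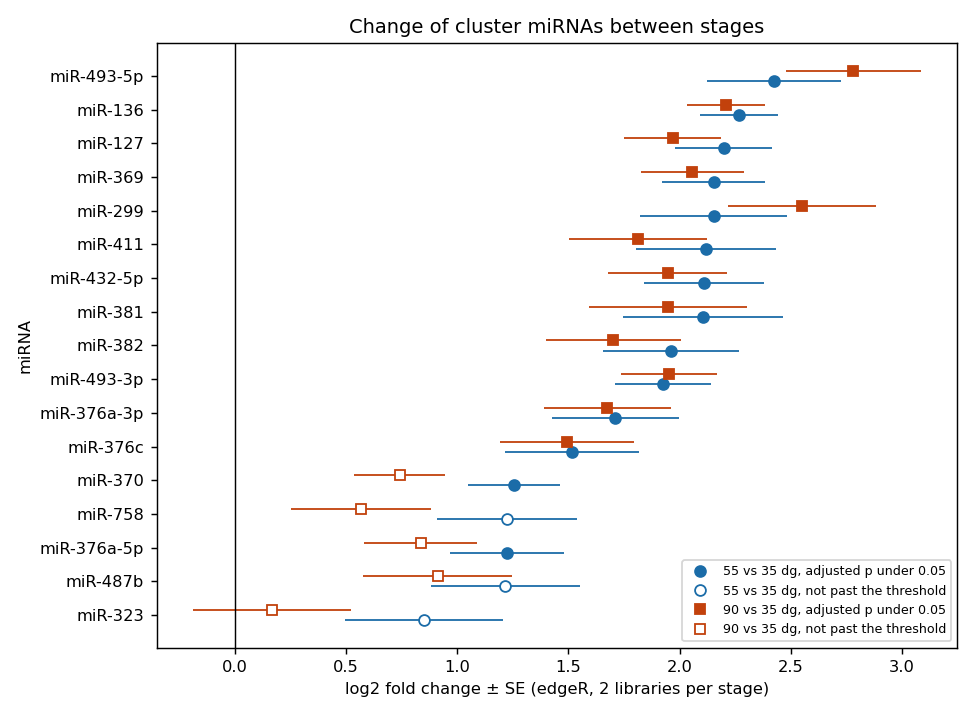
Log2 fold change with its standard error for the 17 tested members between 35 and 55 dg (circles) and between 35 and 90 dg (squares), from the edgeR fit over 6 libraries, ordered by the first. Filled symbols passed an adjusted p of 0.05. 14 members pass at 55 dg and 12 at 90 dg, and miR-323 has the lowest value in both.

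Other miRNA groups moved at the same time. Of 10 names of muscle miRNAs, among them miR-1 and miR-206 of differentiating fibers, 9 were higher at 55 than at 35 dg, with a median log2 fold change of 2.26. Of 9 names of the let-7 family with miR-98, which rise with maturation in many tissues, 8 were higher, with a median of 1.34. Of 3 miR-29 names none passed, with a median of 0.25, none reached an unadjusted p of 0.05, and DESeq2 gave no call. The edgeR test is the same in each case, and differences between these groups and the cluster were not tested.

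Markers of other cell types also differed between stages. The muscle markers miR-1, miR-133a, miR-133b, miR-206, miR-208b and miR-499, all 8 names of which had at least 10 reads in every library, summed to 27267 and 41860 TPM at 35 dg and to 124381 to 184806 at 55 and 90 dg. The 10 names listed under kidney and epithelium summed to 9483 TPM in NE35 and 5768 in RE35, and to 513 to 1132 later, where 2 or 3 of them were at 0. Most of the RE35 sum was miR-196b-5p at 3904 TPM and miR-196a at 1308, so the sum does not describe the other names there. The listed names did not move together: miR-196a and miR-196b-5p were high in both 35 dg libraries. In contrast, miR-192, miR-194a, miR-194b-5p and miR-429 were high in NE35 and at most 26.7 TPM in each other library. Cartilage miR-140 summed to 14048 and 21612 TPM at 35 dg and to 771 to 2196 later. The 15 neuron names, of which 12 remain when names with identical reads are counted once, then summed to 4180 and 5163 TPM at 35 dg and to 1882 to 3091 later. Among them miR-218b was at 1950 and 2023 TPM at 35 dg and 240 to 570 later, but miR-128 at 941 and 1634, then 1353 to 1563. The 5 blood cell names summed to 1792 to 2498 in all libraries, but not all were flat. miR-486, also counted among the muscle miRNAs above, was at 191 and 365 TPM at 35 dg and 821 to 1279 later. In the opposite direction, miR-144 was at 1079 and 856 TPM at 35 dg and 452 to 787 later. Liver miR-122 had at most 27 reads, and 0 in RE90. The part of cell composition in the rise of the cluster was not tested.

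Within the cluster the make-up shifted between 35 dg and later stages, a measure that does not depend on how libraries are scaled to each other. miR-369 took 33.4% of cluster reads in NE35 and 33.1% in RE35, and 38.3% to 44.1% in the later libraries. miR-127 took 19.8% and 20.8% at 35 dg and 24.1% to 25.8% later. In the opposite direction, miR-758 took 20.5% and 21.9% at 35 dg, 13.9% and 13.2% at 55 dg, and 11.6% and 8.31% at 90 dg. The share of miR-323 was 4.25% in NE35 and 4.14% in RE35 and lay between 1.19% and 2.42% later. The share of miR-370 was 10.1% in NE35 and 9.54% in RE35, 4.98% in NE55 but 7.81% in RE55, and 4.79% and 5.42% at 90 dg. For each of these members the 35 dg libraries did not overlap with the later libraries. Summed by position, members near RTL1 took 28.7% and 28.5% at 35 dg and 35.4% to 38.5% later, and the downstream group 61.3% and 61.9% at 35 dg and 56.0% to 59.6% later. Shares of a whole depend on each other, and these differences were not tested.

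**Figure D3:**
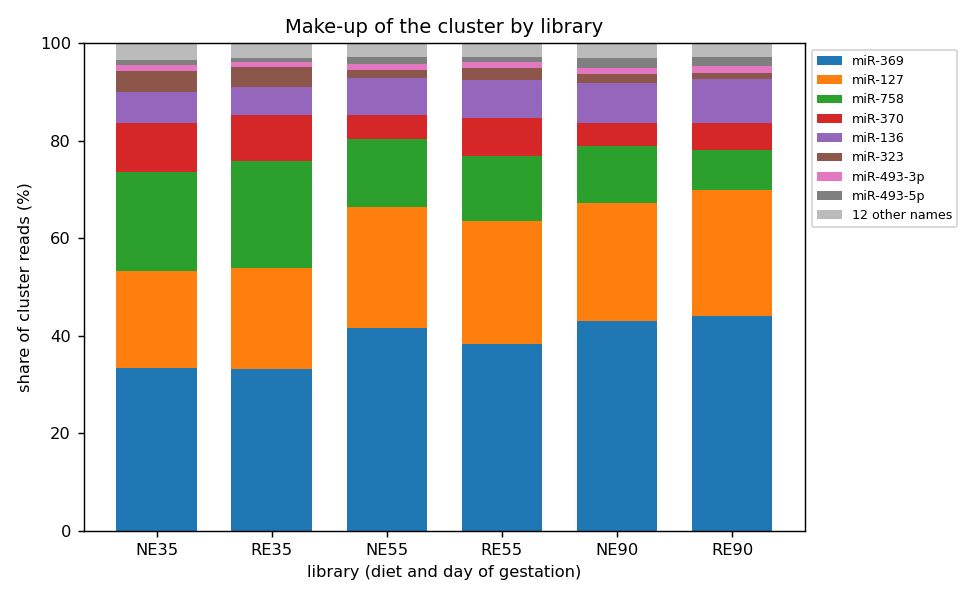
Share of all cluster reads (percent) taken by the 8 members with most reads and by the 12 other names together in each library. The bars of miR-758, miR-370 and miR-323 are wider in NE35 and RE35 than in the later libraries, and those of miR-369 and miR-127 narrower.

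Within each diet the step from 35 to 55 dg could be described from 2 libraries, which gives no replicate check. A member was called when its fold exceeded 2 with a two-sided Fisher's exact p under 0.01 on the reads of the 2 libraries. Here and below, the share in brackets beside a 2-library count is taken over all names with at least 1 read in either library. The members passed the filter of 10 reads in 2 libraries, and names with few reads can rarely pass this threshold. The shares therefore have a wider base than the counts of members, while the medians are over the miRNAs tested. In the normal diet 13 of 17 members were higher in NE55 than in NE35 (8.03% of all names with a read), with a median ratio of 3.81 against 0.68 over all miRNAs tested. In the restricted diet 14 of 17 were higher in RE55 than in RE35 (10% of all names), with a median ratio of 2.97 against 0.83. With TMM scaling the counts were 16 in NE and 15 in RE, and with RLE scaling 17 and 15. Shares over all names were not computed for these scalings. With TMM the members' medians were 4.48 in NE and 3.45 in RE, against 0.80 and 0.967 over all miRNAs tested. miR-493-5p had the largest ratio in NE, 6.25 (95% counting interval 5.53 to 7.08), and a ratio of 3.37 (3.11 to 3.66) in RE. miR-370 had a ratio of 1.84 (1.77 to 1.92) in NE and 2.24 (2.18 to 2.30) in RE. miR-758 went the other way, with 2.52 (2.46 to 2.60) in NE and 1.65 (1.62 to 1.68) in RE. With 1 library per diet and stage, whether the step differs between diets could not be tested.

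From 55 to 90 dg all 17 ratios were below 1 in the normal diet, with a median of 0.785 against 0.902 over all miRNAs tested. In that diet 0 members were called (3.63% of all names were lower). In the restricted diet 15 of 17 were below 1, with a median of 0.682 against 0.782, and 4 were called lower (6.12% of all names). These were miR-323 at 0.326 (0.31 to 0.341), miR-758 at 0.417 (0.409 to 0.425), miR-370 at 0.46 (0.449 to 0.471) and miR-376a-5p at 0.493 (0.46 to 0.528). Scaling matters here: on TMM-scaled or RLE-scaled reads 1 member, miR-323, was called in RE90 against RE55. With TMM the members' medians were 0.911 in NE and 0.855 in RE, against 1.05 and 0.981 over all miRNAs tested.

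Maternal calorie restriction (MCR) was tested over the 3 stages with stage as a block. No member passed, and neither did any other miRNA (0% of the miRNAs tested were higher and 0% lower, edgeR). All 17 members had a log2 fold change above 0, with a median of 0.33 against 0.04 over all miRNAs tested. The highest were 0.63 ± 0.17 (SE) for miR-370, 0.54 ± 0.24 for miR-382 and 0.45 ± 0.17 for miR-127. At an unadjusted p under 0.05 stood 2 members, miR-370 and miR-136, and 9 miRNAs in all, and DESeq2 called 0. The median of the members dropped to 0.05 when either NE35 or RE35 was left out, with 9 of 17 above 0.

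At 35 dg all 17 members were higher in RE35 than in NE35, with ratios from 1.13 for miR-432-5p to 1.91 for miR-382 and a median of 1.58 against 1.03 over all miRNAs tested. None exceeded 2, so 0 were called (1.34% of all names were higher). With RLE scaling 4 were called, miR-127, miR-382, miR-411 and miR-758, and the share over all names was not computed for that scaling. miR-127 had a ratio of 1.83 (1.78 to 1.89), miR-758 of 1.87 (1.81 to 1.92) and miR-369 of 1.73 (1.69 to 1.77). The 2 libraries also differed in other tissue markers. Of the kidney and epithelium names, miR-192 was at 2261 TPM in NE35 and 19.5 in RE35, miR-194b-5p at 2226 and 26.7 and miR-429 at 316 and 15.4, and miR-205 was also lower in RE35. In the same list miR-196b-5p was at 2654 TPM in NE35 and 3904 in RE35 and miR-196a at 796 and 1308. Likewise higher in RE35, cartilage miR-140-3p was at 13942 and 21454 and muscle miR-206 at 15914 and 25217. The part of these differences in the ratios of the cluster was not tested.

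At 55 dg 14 of 17 members were higher in RE55, with a median ratio of 1.22 against 1.16 over all miRNAs tested. The member called was miR-370, with a ratio of 2.01 (1.96 to 2.06), which is close to the threshold (2.15% of all names were higher). With TMM or RLE scaling it was not called. It was followed by miR-323 at 1.84 (1.77 to 1.93) and miR-376a-5p at 1.79 (1.67 to 1.92). miR-493-5p had a ratio of 0.824 (0.779 to 0.871). At 90 dg the ratio was above 1 for 12 of 17, its median was 1.09 against 1.04, and 0 were called (3.37% of all names were higher). miR-323 at 0.765 (0.724 to 0.808), miR-758 at 0.796 (0.78 to 0.813) and miR-376a-3p at 0.894 (0.826 to 0.968) lay below 1 beyond counting error. The members' median ratio was thus 1.58 at 35 dg, 1.22 at 55 dg and 1.09 at 90 dg. Over all miRNAs tested it was 1.03, 1.16 and 1.04, so the gap was widest at 35 dg. These are 3 library pairs, and a difference between stages could not be tested. Neuronal miR-124a was at 182 TPM in RE90 and 0.39 in NE90, and its part in the 90 dg ratios was not tested.

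**Figure D4:**
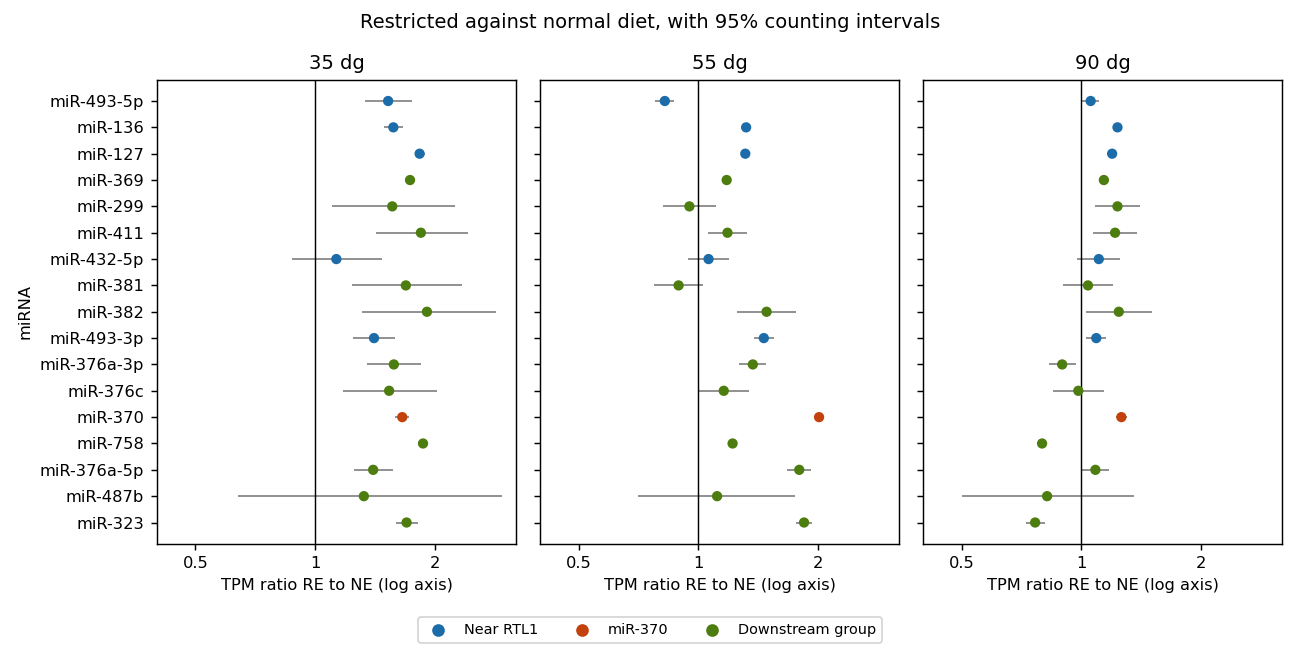
Ratio of TPM in RE to TPM in NE (log axis) for the 17 tested members at 35, 55 and 90 dg, each from 2 libraries, with 95% counting intervals as lines and position in the cluster as colour. All points lie above 1 at 35 dg. At 55 dg miR-370 is at 2.01 and miR-493-5p at 0.824, and at 90 dg miR-323 and miR-758 lie below 1.

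Both arms were counted for miR-376a and miR-493, so the use of the arms can be compared within a library. The 2 arms of a hairpin come from the same precursor, and their ratio is free of differences in library scaling. The 5p arm of miR-493 made up 43.3% (95% interval 39.5 to 47.2) of its reads in NE35, 45.3% (43.0 to 47.7) in RE35, 59.97% (58.7 to 61.2) in NE55, 45.8% (44.3 to 47.3) in RE55, 59.3% (57.9 to 60.7) in NE90 and 58.5% (57.4 to 59.7) in RE90. RE55 thus stood with the 35 dg libraries and NE55 with the 90 dg libraries. This was not particular to miR-493: of 31 hairpins with at least 50 reads on each arm in every library, 15 had an NE55 share nearer to the 90 dg mean and an RE55 share nearer to the 35 dg mean, among them miR-376a, miR-199b, miR-145 and miR-28, a count made after the values were seen. For miR-199b the 5p share was 16.4% and 16.7% at 35 dg, 25.8% in NE55 and 17.6% in RE55. The count of 15 required no difference between 35 and 90 dg. For miR-455, also counted, the shares overlapped, at 59.1% and 60.7% at 35 dg and 63.1% and 58.6% at 90 dg. For miR-493 the log2 ratio of 5p to 3p differed by -0.83 between RE55 and NE55. This was the largest absolute difference among 33 hairpins with at least 50 reads on each arm, whose median was 0.34. From NE35 to NE55 the miR-493 ratio changed by 0.97, rank 6 of 32 hairpins, and from RE35 to RE55 by 0.03, rank 31 of 32.

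The 5p arm of miR-376a, the sequence printed above, had another course. It made up 65.5% (61.7 to 69.2) in NE35, 62.8% (60.5 to 65.0) in RE35, 52.4% (50.6 to 54.3) in NE55, 59.1% (57.2 to 60.8) in RE55, 47.5% (45.4 to 49.7) in NE90 and 52.3% (50.5 to 54.1) in RE90. The share was lower at 90 than at 35 dg in both diets, and RE lay above NE at 55 and 90 dg. The difference between RE55 and NE55 was 0.39 on the log2 scale, rank 14 of 33 hairpins. For miR-432, 88 to 675 reads fell on 5p and at most 1 on 3p. These intervals cover counting error only and the comparisons have no replicate check.

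**Figure D5:**
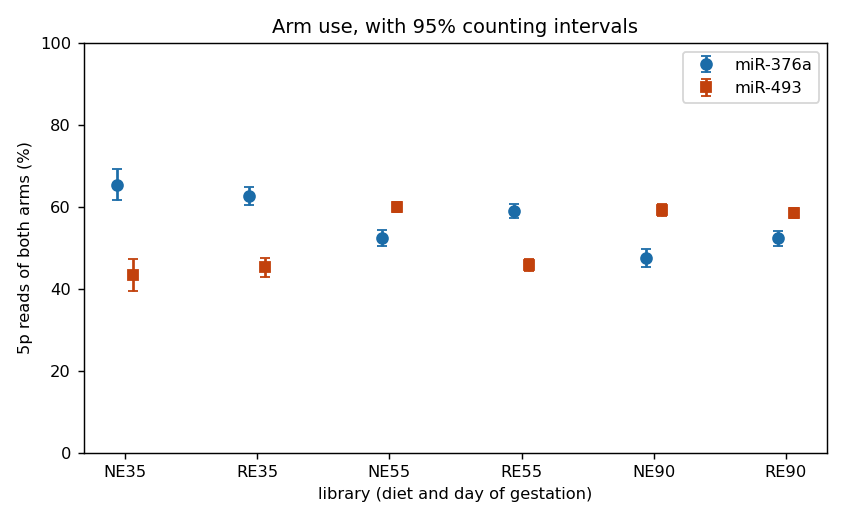
Share of the 5p arm among reads of both arms (percent) for miR-376a (circles) and miR-493 (squares) in each library, with exact 95% counting intervals. The miR-493 share is near 45% in NE35, RE35 and RE55 and near 60% in NE55, NE90 and RE90, and the miR-376a share is highest at 35 dg.

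The mRNA libraries gave little on the host locus. Of the 5 locus genes looked for, RTL1 was matched by symbol (ENSSSCG00000002573), and BEGAIN, DLK1, MEG3 and DIO3 were not analysed here. RTL1, a retrotransposon-derived gene whose span holds MIR127, MIR432 and MIR136, had 0 reads in NE and 7 in RE at 35 dg, 4 and 19 at 55 dg, and 2 and 0 at 90 dg, too few for the test. Of 7 miRNA processing genes tested none passed between 35 and 55 dg by edgeR (1.15% of 12872 genes were higher and 0.808% lower), none reached an unadjusted p of 0.05, and DESeq2 gave no call. DROSHA, which cuts the primary transcript, had 1267 reads (NE) and 1588 (RE) at 35 dg, 1031 and 1201 at 55 dg, then 811 and 830.0 at 90 dg. For XPO5, which exports the hairpin from the nucleus, the counts were 701 at 35 dg, 351 at 55 dg and 269 at 90 dg in the NE libraries, and 786, 461 and 310.0 in the RE libraries. Its log2 fold change was -0.67 at 55 dg (adjusted p = 0.496 from edgeR) and -0.98 at 90 dg (adjusted p = 0.124 from edgeR), both against 35 dg.

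The genes imprinted at other loci in mouse or human that could be tested did not pass either. Of 18 genes looked for, 12 were matched by symbol and 11 had enough reads. IGF2, H19, CDKN1C, PEG10, NNAT and MAGEL2 were not matched and not analysed. Of 11 tested, 0 were called between stages or diets by edgeR, 1 reached an unadjusted p of 0.05 between 35 and 55 dg, and DESeq2 called 0. Over all 12872 genes tested, edgeR called 148 higher and 104 lower at 55 against 35 dg, and 498 and 435 at 90 against 35 dg. It called 0 at 90 against 55 dg and 0 for diet. The largest value at 55 against 35 dg was that of PLAGL1, a zinc finger factor, with 1.08 (adjusted p = 0.265 from edgeR) on 593 reads in NE and 672 in RE at 35 dg, 1099 and 1149 at 55 dg, and 358 and 964 at 90 dg. With RE55 left out, PLAGL1 and SGCE passed at 55 against 35 dg, and PEG3 and XPO5 at 90 against 35 dg. XPO5 also passed there without NE55, and PEG3 without RE90.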

How the data were processed

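The authors trimmed adaptors from small RNA reads, kept short inserts and deposited reads per miRNA as counts, not normalized, and as TPM, which differs from the same counts scaled to their total by at most 2.52. Aligner and annotation of the miRNA counts: Bowtie per the labels, version not given in the sources used here. For mRNA the authors used TopHat2 and the Sscrofa10.2 build, left out reads with several locations and deposited counts per gene. The deposited RPKM were not used. Columns named SE were read as RE, because the study's own RE tables hold the same values for mRNA and proportional ones for miRNAs.

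Counts were tested with R 4.3.3 and edgeR 4.0.16 (TMM, quasi-likelihood, stage and diet as factors, filters of 10 reads for miRNAs and 1 CPM for genes, each in 2 or more libraries), and with DESeq2 1.42.0. Ratios of 2 libraries used reads scaled to the total miRNA reads of each library. They carried exact binomial 95% intervals and Fisher's exact test (scipy 1.17.1, Python 3.11.15, pandas 2.3.3, numpy 2.4.6, matplotlib 3.10.9). With TMM or RLE scaling, an exact binomial test took the place of Fisher's exact test. Medians of TPM on the log2 scale used a pseudocount of 1. Total mRNA counts were 11091317 to 12985505 per library, and 11010 of 19158 gene identifiers had a symbol. p-values measure the spread between these libraries only, since both diets or all stages serve as replicates. The members and lists were chosen with earlier results of these data known. All members are named, with full values for those reaching 100 TPM. Sequences were joined from the forward and reverse transcription primers of the study's qPCR assays, which overlap by 2 bases. Alternatives covered scaling, filters, tools, the covariate, fold thresholds, pseudocounts and leaving out each library.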

Additional observations from a re-analysis of the deposited data

Results flagged for a closer look

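For 4 members the RE to NE ratio lay above 1 at a stage and below 1 at another, beyond the 95% counting intervals of both. miR-323 had ratios of 1.70 at 35 dg, 1.84 at 55 dg and 0.765 at 90 dg. miR-758 had 1.87, 1.22 and 0.796 at the same stages. miR-376a-3p had 1.58, 1.37 and 0.894. For miR-493-5p the low stage was 55 dg, with 1.53 at 35 dg, 0.824 at 55 dg and 1.05 at 90 dg. Each ratio compares 2 libraries, and the differences between stages were not tested, because no library is left to estimate the spread.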

How the results depend on the processing

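With 1 library per diet and stage, precision is set by the spread between libraries, not by reads. Leaving out a library gave 0 to 16 members called at 55 against 35 dg, 0 to 12 at 90 against 35 dg and 0 to 4 genes of the mRNA lists, against 14, 12 and 0 with all libraries. Settings other than a left-out library gave 11 to 16 members called in the stage comparisons with 35 dg. Over all miRNAs these settings called 98 to 164 there. At 90 against 55 dg and for diet they gave 0 members. Between 2 libraries, a fold of 1.5 gave 2 members for NE90 against NE55, 12 for RE35 against NE35 and 3 for RE55 against NE55. Shares over all names were not computed at this fold or under the scalings that follow. With RLE scaling 4 were called for RE35 against NE35, 1 for RE90 against RE55 and 0 for RE55 against NE55, and with TMM scaling 1 and 0 for the last 2 of these. For diet, 17 members were above 0 with all libraries, 14 without the covariate, 16 without NE55 and 9 without NE35 or RE35, and at 90 against 55 dg 3 were above 0 with all libraries, 6 without NE55, 7 without RE90 and 1 without RE55. In the stage comparisons with 35 dg, and among the members whose values are given for 90 against 55 dg, the direction turned for 4, none of which had passed there: miR-323 at 90 against 35 dg was -0.32 with total reads only and ranged from -0.42 to 0.69 with a library left out, miR-758 ranged from -0.00058 to 1.15 there, and at 90 against 55 dg miR-299 ranged from -0.0074 to 0.72 and miR-493-5p from -0.074 to 0.73. The cause was not tested. Beyond the pairing of diets by stage in the diet test, no paired analysis was possible because each diet and stage had 1 library.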
